A study of Rattus norvegicus with 11 samples.

Results

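The miR-30 family is a group of miRNAs, short RNAs that bind mRNAs and lower their output. It was taken as every rat name from miR-30a to miR-30e, with or without a 3p or 5p suffix and without a star, that stood on both array designs of the series. This gave 6 of 340 shared names: miR-30a, miR-30b-3p, miR-30b-5p, miR-30c, miR-30d and miR-30e. All 6 were detected on at least 5 arrays and were tested, and 5 were detected on all 11 arrays.

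RNA came from pancreatic islets of 13 week old female Sprague Dawley rats, measured on 1-colour Agilent arrays. HFD daughters had fathers fed pellets with 43% fat and Control daughters had fathers fed chow with 9% fat. All fathers were mated at 15 weeks with females on chow, and all daughters were weaned at 3 weeks onto chow, so neither group of daughters ate the high-fat pellets. The first design held 4 Control and 4 HFD arrays and the second held 2 Control arrays and 1 HFD array, each from a separately numbered sample. The labels used here do not tell which daughters shared a father or a litter, and p-values measure the spread between these samples.

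A miRNA acts mainly through its seed, bases 2 to 8 from its 5′ end, which pairs with sites in target mRNAs, so miRNAs that share a seed can share targets. Each miRNA hairpin gives a 5p and a 3p arm, and in the miR-30 family the 5p arm is the main product. In the pancreas the family is known for its abundance in epithelial endocrine cells and for targeting mRNAs of mesenchymal proteins such as vimentin. In cultured beta cells miR-30d is known to respond to glucose and to raise insulin gene expression.

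RefSeq tables of build GRCr8 held mature sequences for 3 of the 6 members. They are shown, with the seed in capitals, because the shared seed defines the family and the bases after it are what tells the members apart.
miR-30a-5p: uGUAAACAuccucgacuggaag
miR-30e-5p: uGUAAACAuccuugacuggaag
miR-30c-5p: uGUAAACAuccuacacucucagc
The first 12 bases were the same in these 3. Counted from the 5′ end, miR-30e-5p differed from miR-30a-5p by 1 substitution over 22 bases, C13U. miR-30c-5p differed from miR-30a-5p by 5 over the same length, C13A, G14C, G18C, G19U and A20C. Of 693 mature names in the table, 4 carried this seed, and the only one outside the family was miR-384-5p, a miRNA best known from neurons. It is shown because its bases after the seed diverge at once from those of miR-30 and because it was measured on both designs.
miR-384-5p: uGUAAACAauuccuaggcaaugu

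The Mir30a hairpin lies on the plus strand at chr9:33233941-33234011 of GRCr8. It is shown as an example of how both arms sit in 1 precursor, with the mature 5p and then the mature 3p arm in capitals.
Mir30a hairpin: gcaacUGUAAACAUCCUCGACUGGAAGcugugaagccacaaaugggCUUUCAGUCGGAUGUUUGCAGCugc
miR-30c-5p is encoded in both Mir30c1 and Mir30c2, so its level sums over both hairpins. The family's genes stand in pairs, in which Mir30a and Mir30c2, Mir30c1 and Mir30e, and Mir30b and Mir30d are each other's nearest annotated miRNA gene. Mir30c1 and Mir30e both lie within Nfyc, the gene of a subunit of the transcription factor NF-Y. The array headers name the older build rn4, so no array coordinate was combined with these.

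Levels are given as log2 of the signal of an array's probes for a miRNA, summed and scaled so that the upper quartile of 85 miRNAs detected on every array was equal between arrays. Since probes differ in brightness, levels are compared between arrays for 1 miRNA and not between miRNAs. Arrays detected 105 to 184 of the 340 shared names, and no spot was saturated. HFD 653 detected the fewest, and its negative-control spots had an SD of 11.6 against 2.03 to 2.41 on the other 7 first-design arrays. The islet markers miR-375, miR-7a and miR-7b were all tested, with none called. Summed over the islet list, scaled signal ran from 11423 to 16200 on first-design Control arrays and from 12005 to 14764 on HFD arrays.

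One feature of the first-design arrays came before any comparison of diets. The file headers give each of the 8 arrays 2 place numbers, a block (1 or 2) and a position (1 to 4). Slide position here means the second number alone. Each position held a pair of arrays, 1 from each block, so the 2 arrays of a pair did not share a place. Control 602 and HFD 653 were at position 1, HFD 603 and HFD 644 at position 2, Control 639 and HFD 607 at position 3, and Control 613 and Control 615 at position 4. A probe is printed as several spots, and the deviations of 1296 spots from the median of their own probe were compared between arrays. Spearman's rank correlation was 0.539 to 0.754 for the 4 pairs at the same position and -0.146 to 0.313 for the 24 other pairs. It is a description across spots, which share probes and arrays.

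The miR-30 probes showed this feature plainly at position 1. The 10 spots of the brighter miR-30b-5p probe read, in order and unscaled, 2.25, 128, 57.4, 32.9, 36.9, 77.9, 39.5, 10.8, 67.4 and 85.3 on Control 602. The same spots on HFD 653 read 13.6, 154, 58.2, 26.1, 36.01, 76.9, 41.0, 11.9, 71.8 and 89.2. The second spot was thus the brightest, and the first and the eighth were the dimmest, in both a Control and an HFD sample. At position 4 the third spot was the dimmest, at 78.4 on Control 613 and 84.0 on Control 615, where all other spots of this probe read at least 170. Of this probe 1 spot carried an outlier flag on each of Control 613, Control 615 and HFD 653, and none on Control 602. The flagged spot was the third on the 2 Control arrays and the second on HFD 653. Flagged spots entered neither the levels nor the coefficient of variation between spots. Over the 10 probes of the 5 members detected on all arrays, this coefficient had a median of 41.8% at position 1. It was 15.1% at the other first-design positions and 4.22% on the second design, so these medians leave out spots such as the dim ones at position 4.

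**Figure D1:**
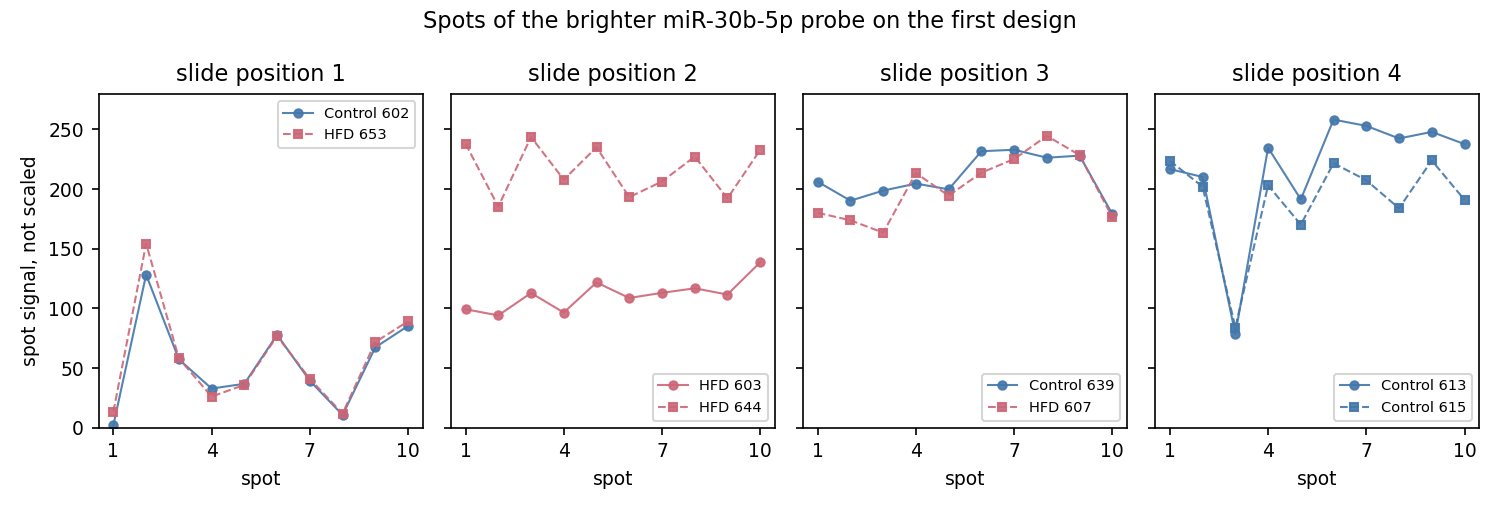
Unscaled signal of the 10 spots (x axis, numbered within the array) of the brighter miR-30b-5p probe on the 8 first-design arrays, 1 panel per slide position, blue for Control and red for HFD. The lines of Control 602 and HFD 653 at position 1 nearly coincide, and both arrays at position 4 are low at the third spot.

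All 5 members detected on every array read lower at position 1 than at the other first-design positions. The difference in log2 level was -1.51 for miR-30b-5p, the lowest of 85 miRNAs, -0.63 for miR-30e, which ranked 3, -0.58 for miR-30d, which ranked 4, -0.55 for miR-30a, which ranked 6, and -0.36 for miR-30c, which ranked 13 from the lowest. A further 79 miRNAs were detected on every array, leaving out 1 that the scaling fixed, miR-26b. It stood at the upper quartile on every first-design array and read 10.13 on each, so first-design levels are relative to miR-26b. For the further 79 miRNAs the median was 0.018, with a range from -1.05 to 1.32. The epithelial miR-200 family, often studied beside miR-30, had values of -0.17 for miR-200a, 0.16 for miR-200b, 0.061 for miR-200c, -0.41 for miR-141 and 0.092 for miR-429. Low readings at position 1 were not limited to the family, since miR-153 was at -1.05, which ranked 2, and miR-384-5p at -0.47, which ranked 9 and lay below miR-30c. Position 1 held 1 array of each group, so this difference did not run along with diet, but it widened the spread within both groups. These ranks were looked at after the values were seen and carry no test.

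No miR-30 member passed the test for a difference between daughters of HFD and Control fathers. In limma with array design as a block, 0 of 6 members and 0 of 152 tested miRNAs passed an adjusted p of 0.05, a background of 0%. At an unadjusted p of 0.05 the count was 0 of 6 members beside 3 of 152, or 1.97%. On the first design Control and HFD arrays overlapped for every member, so none of the 6 had groups apart in the same direction on both designs, beside 1 of 152 miRNAs, or 0.658%. The difference was above 0 for 2 of 6 members, with a median of -0.016, and for 108 of 152 miRNAs, or 71.1%, with a median of 0.067.

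The precision behind these differences was not the same for all members. The 95% interval excluded a change of 2-fold in either direction for all 6 members, beside 124 of 152 miRNAs. For miR-30b-5p this was narrow, and it was lost in 13 of 31 alternatives, among them the first design alone (-1.37 to 0.89), without Control 602 (-1.09 to 0.21), and without any 1 of HFD 603, HFD 607, HFD 644, Control 635, Control 652 and HFD 640. Of the other members, miR-30a and miR-30d kept it in all 31, and miR-30b-3p, miR-30c and miR-30e lost it in 1 each. The interval also excluded 1.5-fold for all but miR-30b-5p in the main fit, but at least 1 member included it in 29 of the 31. With slide position as the block the exception was miR-30b-3p (-0.65 to 0.95) and not miR-30b-5p, and leaving out any single array made miR-30b-3p include 1.5-fold. The interaction of diet with array design had a smallest adjusted p of 0.996 over the members in limma, and it called 0 of 152 miRNAs, with 1 at an unadjusted p of 0.05. Its narrowest interval among the members was -0.60 to 0.66, for miR-30c, and its widest -1.66 to 2.41, for miR-30b-5p. The second design held 1 HFD array, so this test could miss a difference between designs.

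Of the 5p members, miR-30b-5p varied most between arrays. Its log2 level was 6.53, 8.21, 8.31 and 8.17 on Control 602, 613, 615 and 639, and 7.71, 7.97, 7.998 and 6.58 on HFD 603, 607, 644 and 653. The low array of each group was the one at position 1, and among the other 6 arrays the 3 Control values lay above the 3 HFD values. On the second design it read 10.84 and 10.80 on Control 635 and 652 and 10.95 on HFD 640, with the HFD array above both Control arrays. First-design means were 7.81 ± 0.85 for Control and 7.57 ± 0.67 for HFD (SD, n = 4 each). The difference from the fit of both designs was -0.15 ± 0.37 (SE), with an interval from -0.97 to 0.68, an adjusted p of 0.987 in limma and an exact permutation p of 0.514.

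With slide position as the block, a fit chosen after the spot patterns were seen, the miR-30b-5p difference was 0.010 ± 0.12 (SE), with an interval from -0.27 to 0.29. Its SE fell to 0.313 of its former size, the largest fall of 152 miRNAs, while the median miRNA had a ratio of 1.14. Within position 1, HFD 653 minus Control 602 was 0.056, and within position 3, HFD 607 minus Control 639 was -0.20. Without both position 1 arrays the difference was -0.19 ± 0.11 (SE), with an adjusted p of 0.964 in limma. Leaving out Control 602 alone gave -0.44 and leaving out HFD 653 alone gave 0.10, so each of these 2 arrays moved the value by more than its own size.

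miR-30a, whose sequence is that of the hairpin above, read 7.69, 8.37, 8.39 and 8.11 on Control 602, 613, 615 and 639. On HFD 603, 607, 644 and 653 it read 8.29, 8.59, 8.12 and 7.83. The highest array was an HFD one and the lowest a Control one, with the rest interleaved. On the second design it read 8.93 and 8.88 on the Control arrays and 9.02 on the HFD array. The difference was 0.081 ± 0.17 (SE, interval -0.29 to 0.45), with an adjusted p of 0.987 in limma and an exact permutation p of 0.619. With slide position as the block it was 0.23 ± 0.11, with an interval from -0.024 to 0.49 and an adjusted p of 0.573 in limma. Within position 1, HFD 653 minus Control 602 was 0.14 for miR-30a, and within position 3, HFD 607 minus Control 639 was 0.48.

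miR-30c, the product of both Mir30c genes, had the smallest SE of the members. It read 7.94, 8.42, 8.48 and 8.41 on Control 602, 613, 615 and 639 and 8.44, 8.51, 8.39 and 8.24 on HFD 603, 607, 644 and 653. Apart from the 2 arrays at position 1, the other 6 lay within 8.39 to 8.51 with both groups mixed. Second-design values were 9.85 and 9.81 for Control and 9.95 for HFD. The difference was 0.094 ± 0.11 (SE, interval -0.16 to 0.35), with an adjusted p of 0.987 in limma, an exact permutation p of 0.448 and the smallest unadjusted p of the members, 0.432. It was 0.17 ± 0.089 with slide position as the block, again with an adjusted p of 0.573 in limma.

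miR-30d, the member linked to glucose and insulin in cultured beta cells, read 7.81, 8.40, 8.74 and 8.61 on Control 602, 613, 615 and 639. On HFD 603, 607, 644 and 653 it read 8.35, 8.45, 8.47 and 8.04. All HFD values lay inside the Control range, whose low end was Control 602, at position 1. Second-design values were 9.44 and 9.04 for Control and 9.31 for HFD, again inside the Control range. The difference was -0.030 ± 0.18 (SE, interval -0.42 to 0.36), or 0.747-fold to 1.28-fold. Its adjusted p was 0.987 in limma and its exact permutation p was 0.867. Without Control 602 the difference was -0.17 ± 0.14, and without HFD 653 it was 0.042 ± 0.18.

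miR-30e, which differs from miR-30a-5p by the single C13U substitution, read 6.82, 7.53, 7.71 and 7.44 on Control 602, 613, 615 and 639. On HFD 603, 607, 644 and 653 it read 7.32, 7.45, 7.36 and 6.86. Both position 1 arrays were below the other 6, and all HFD values lay inside the Control range, whose low end was Control 602. On the second design the order was different, with 8.72 and 8.76 for Control and 8.96 for HFD. The difference was -0.040 ± 0.18 (SE, interval -0.43 to 0.35), with an adjusted p of 0.987 in limma and an exact permutation p of 0.795. Without Control 602 the difference was -0.16 ± 0.15, and without HFD 653 it was 0.064 ± 0.16.

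**Figure D2:**
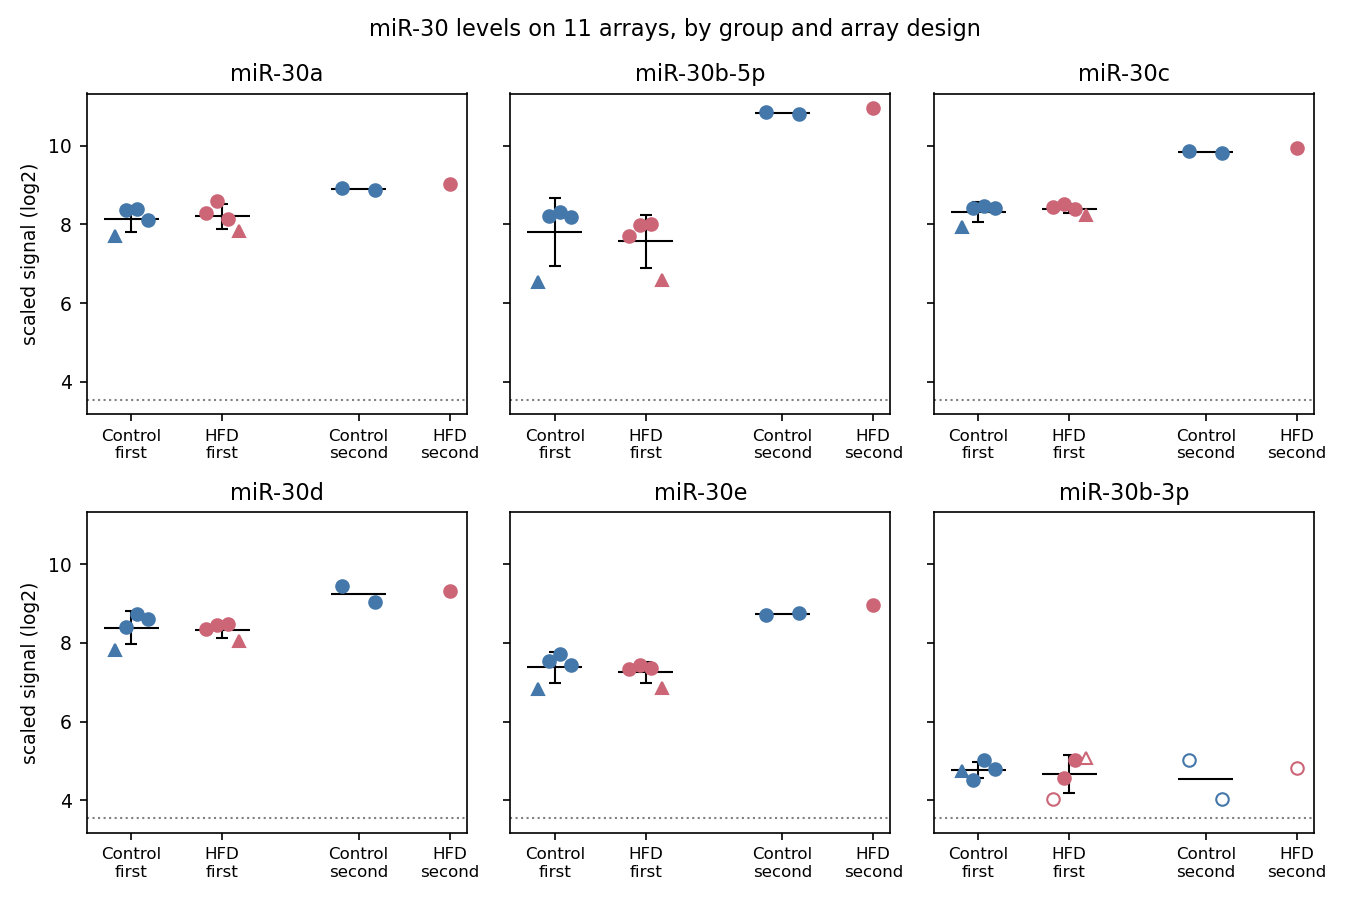
Scaled log2 signal (y axis) of each miR-30 member on each array, by group and array design (x axis), blue for Control and red for HFD, triangles for the arrays at slide position 1 of the first design, open symbols where the miRNA was not detected. Lines are means of 2 or more arrays, bars are SD for n = 4, and the dotted line is the floor at 3.54; groups overlap within the first design in every panel, and the 5p members stand higher on the second design.

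With slide position as the block, all 6 differences were above 0, beside 118 of 152 miRNAs, or 77.6%. This fit called 0 of 152 miRNAs, with 10 at an unadjusted p of 0.05, a smallest adjusted p of 0.573 in limma, and a median SE of 0.198 against 0.18 with array design as the block. Positions 2 and 4 held 1 group each, so on the first design this fit compared diets only at positions 1 and 3.

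**Figure D3:**
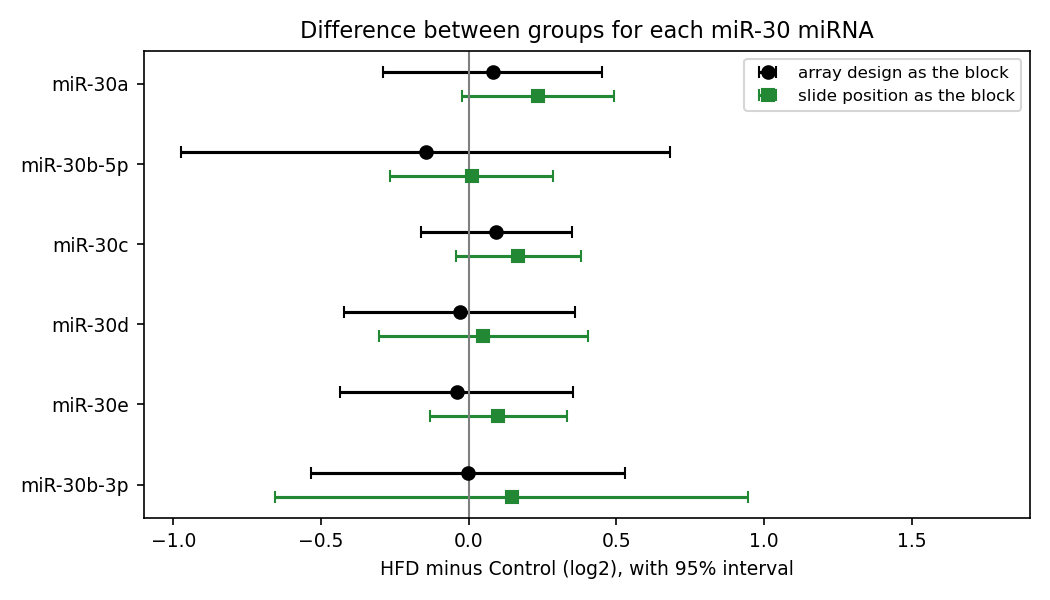
HFD minus Control log2 difference (x axis) of each miR-30 member with its 95% interval, with array design as the block (black circles) and with slide position as the block (green squares). All intervals include 0, and that of miR-30b-5p narrows from -0.97 to 0.68 down to -0.27 to 0.29.

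Each change of scaling moved the members' values in a shared direction, by like amounts except with quantile normalisation. That setting gave -0.48 for miR-30b-3p and -0.047 for miR-30c, from -0.0030 and 0.094 in the main setting. The median over all 152 miRNAs was 0.067 in the main setting, 0.16 with no scaling, -0.15 with the upper quartile over all shared names, -0.084 with median scaling and -0.076 with quantile normalisation. The members above 0 numbered 2, 5, 0, 0 and 0 in that order, so no direction is given for the family.

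Each 5p member has 2 probes, which were read separately on the first design. The brighter probe gave HFD minus Control differences of 0.10 for miR-30a, -0.25 for miR-30b-5p, 0.065 for miR-30c, -0.11 for miR-30d and -0.11 for miR-30e. Without HFD 653 these were 0.20, 0.11, 0.12, 0.016 and -0.015, and without Control 602 they were -0.038, -0.69, -0.060, -0.32 and -0.29, so each position 1 array turned the sign of some. Of 10 spots on HFD 653, 4 of the brighter miR-30b-5p probe and 5 of the brighter miR-30e probe were well above background. At the other first-design positions all 10 were. On HFD 653 the dimmer probes of miR-30a, miR-30b-5p, miR-30c and miR-30e had 0 of 10 spots well above background. No difference that uses that array is given for these dimmer probes. Without it they read 0.18, -0.033, 0.30 and 0.14. These values keep Control 602, so only the Control side holds a position 1 array. On Control 602 the dimmer miR-30b-5p and miR-30e probes each had 3 of 10 spots well above background. At the other first-design positions the lowest count was 3 for miR-30b-5p and 2 for miR-30e. All 6 members have the same probes on both designs.

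Ratios between members do not depend on the scaling. Among 10 pairs of the 5 members detected on all arrays, none passed an exact permutation test within array design, which has 210 splits and a smallest possible p of 0.0048. The smallest p was 0.171, adjusted to 0.673 over the pairs, for miR-30a over miR-30e, whose log2 ratio was 0.12 higher in HFD (interval -0.075 to 0.32). Across the first design this ratio was 0.77 ± 0.11 in Control and 0.96 ± 0.16 in HFD (SD, n = 4 each). On the second design the order was reversed, with a mean of 0.16 for Control and 0.067 on the HFD array. The steadiest pair was miR-30d over miR-30e, with an SD of 0.10 over the 8 first-design arrays and a difference of 0.010 (interval -0.20 to 0.22).

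miR-30b-5p moved apart from its relatives at position 1 and between designs. Its log2 ratio over miR-30c was -1.41 on Control 602 and -1.65 on HFD 653, against -0.73 to -0.17 on the other 6 first-design arrays and 0.99 to 1.01 on the second design. Its ratio over miR-30d, the product of the neighbouring gene, was -1.28 and -1.46 on the same 2 arrays, against -0.63 to -0.19 on the other 6 and 1.41 to 1.75 on the second design. In both ratios the position 1 arrays were the lowest and the second-design arrays the highest, whatever the group.

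Levels on the second design were higher for all 5 members than on the first. The difference was 3.18 for miR-30b-5p, 1.52 for miR-30c, 1.501 for miR-30e, 0.91 for miR-30d and 0.77 for miR-30a, which ranked 2, 5, 6, 14 and 20 from the highest of 85 miRNAs. The other 79 had a median of -0.036 and a range from -2.52 to 3.34. Design, slide, version of the Agilent Feature Extraction software and animals changed together, so their parts in this difference cannot be told apart. The balance between probes changed as well, though not in this family alone. The dimmer over the brighter probe gave 0.148 to 0.284 for miR-30a on the first design and 0.559 to 0.624 on the second, with the low end on HFD 653 and 0.232 the lowest elsewhere. For miR-30c it gave 0.111 to 0.146 and 0.297 to 0.316. For miR-30d alone of the 5 the ranges overlapped, at 0.649 to 0.932 and 0.775 to 0.805. Over 80 miRNAs with 2 probes, the ratio was higher on all second-design arrays than on all first-design arrays for 71.

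**Figure D4:**
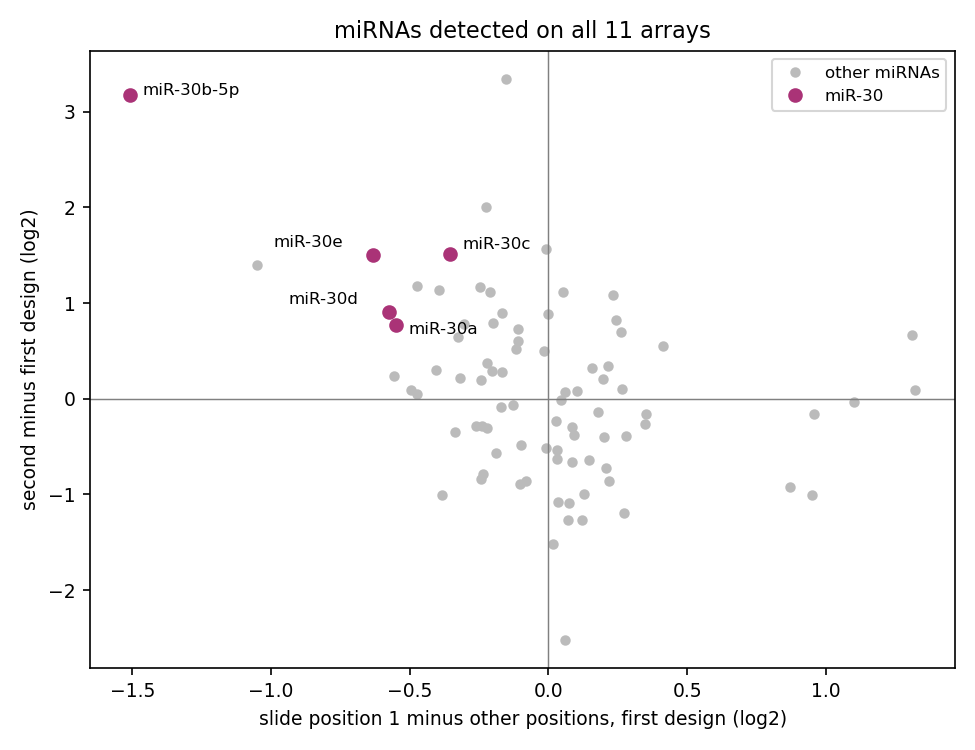
Difference in log2 level between slide position 1 and the other first-design positions (x axis) and between the second and the first design (y axis) for 85 miRNAs detected on all arrays, miR-30 members in purple and other miRNAs in grey. All 5 members lie to the upper left, with miR-30b-5p farthest, at -1.51 and 3.18.

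Of the 3p arms, miR-30b-3p was dim. It was detected on 6 arrays, the 4 Control arrays and 2 HFD arrays of the first design, and on none of the second. Its level was 4.74, 4.51, 5.03 and 4.78 on Control 602, 613, 615 and 639 and 4.02, 4.56, 5.02 and 5.07 on HFD 603, 607, 644 and 653, where HFD 603 and HFD 653 were not detected. The HFD values spanned the whole Control range. The difference, in which values of arrays without detection enter as measured, was -0.0030 ± 0.24 (SE, interval -0.53 to 0.53), with an adjusted p of 0.997 in limma and an exact permutation p of 0.995.

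The star names, which the family's rule leaves out, are the other arms of the remaining hairpins. Of 5 such names on both designs, miR-30c-1*, miR-30c-2* and miR-30d* were detected on no array. miR-30a*, the 3p arm of the hairpin above, was detected on 9 arrays, and its first-design mean was 4.77 ± 0.045 for Control arrays and 4.78 ± 0.22 for HFD arrays (SD, n = 4 each). Its difference was 0.012 ± 0.11 (SE), with an adjusted p of 0.987 in limma. miR-30e* was detected on 6 arrays and lay at the floor on all 4 first-design Control arrays and 3 of the 4 HFD arrays, so its difference of 0.074 ± 0.075 (SE, adjusted p of 0.987 in limma) rests mostly on the second design, where it read 5.72 on both Control arrays and 5.90 on the HFD array.

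Levels of the members ran together over the 8 first-design arrays, less so once position 1 was left out. Pearson's r between pairs of members, a description over arrays that share a slide, ran from 0.760 to 0.978 over 8 arrays. Over the 6 arrays at other positions it ran from -0.101 to 0.903. The pairs that stayed high were miR-30a with miR-30c at 0.903, miR-30b-5p with miR-30e at 0.842, miR-30d with miR-30e at 0.760, and miR-30b-5p with miR-30d at 0.749. The genomic neighbours Mir30b and Mir30d, and Mir30a and Mir30c2, are among these pairs, while miR-30c with miR-30e, also neighbours, had an r of 0.375.

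The non-members whose levels were most like the mean of the 5 members, by Pearson's r over the 8 first-design arrays among 79 candidates, were miR-27b at 0.933, miR-153 at 0.923, miR-24 at 0.912, miR-103 at 0.885 and miR-384-5p at 0.876. miR-27b and miR-24 are encoded in a common cluster, miR-153 is encoded within genes of secretory granule proteins, and miR-103 is known for its effects on insulin sensitivity. Without the 2 position 1 arrays r was 0.878, 0.833, 0.748, 0.830 and 0.518 in the same order. The list itself depended on the measure, since 2 of these 5 were among the closest 5 by Spearman's rank correlation. None of the 5 passed the test between groups, with differences from -0.23 ± 0.28 (SE) for miR-153 to 0.078 ± 0.10 for miR-24 and adjusted p of at least 0.987 in limma.

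miR-384-5p, the only other miRNA of the table with the miR-30 seed, was detected on all 11 arrays. It read 8.43, 9.14, 9.16 and 9.22 on Control 602, 613, 615 and 639 and 8.82, 9.08, 9.18 and 8.83 on HFD 603, 607, 644 and 653. Control 602 was the lowest, the position 1 arrays read 0.47 lower on average than the other 6, and the groups overlapped. Second-design values were 9.00 and 8.94 for Control and 9.16 for HFD. Unlike the 5 members, which all stood at least 0.77 higher on the second design, it differed by 0.051 between designs. Its diet difference was 0.040 ± 0.16 (SE, interval -0.31 to 0.39), with an adjusted p of 0.987 in limma.

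Marker lists of other cell types and of related pathways were read from the same fit, with 0 called in each. The epithelial list of the miR-200 family had 4 of 5 members above 0 and a median of 0.0083, with miR-429 at 0.055 ± 0.098 (SE), miR-200a at -0.054 ± 0.10 and miR-141 at 0.056 ± 0.16. A list of 13 miRNAs linked to glucose or beta-cell function had 10 tested, 8 of them above 0, with a median of 0.062. Its smallest p-values belonged to miR-212 at 0.42 ± 0.30 (SE), miR-29a at 0.093 ± 0.10 and miR-34a at 0.23 ± 0.34. The islet list had 2 of 3 above 0 and a median of 0.050, with miR-7b at 0.064 ± 0.095, miR-7a at 0.050 ± 0.11 and miR-375 at -0.031 ± 0.12.

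Lists of markers for other cells of the pancreas and for blood gave the following values. Of the acinar list miR-216a was tested, at 0.68 ± 0.84 (SE), and the list's scaled signal, summed over detected names, ran from 23.0 to 690 on Control and from 117 to 732 on HFD first-design arrays. Of the leukocyte list miR-150 was at 1.72 ± 0.61, with an unadjusted p of 0.0184 and an adjusted p of 0.987 in limma. Its exact permutation p was 0.0048, the smallest possible, and 0.724 when adjusted over all tested miRNAs. It was the 1 of 152 miRNAs with groups apart on both designs. It was detected on 7 arrays, and its first-design Control values lay at or near the floor, from 3.54 to 3.79. miR-223 was at 0.14 ± 0.31, and miR-142-5p was detected on no array. The summed leukocyte signal ran from 0 to 39.3 on Control and from 0 to 371 on HFD first-design arrays. The endothelial list had miR-10a-5p at 0.26 ± 0.21 and miR-126 at 0.10 ± 0.15, and the fibroblast list miR-199a-3p at 0.17 ± 0.30, miR-143 at 0.13 ± 0.25 and miR-214 at -0.12 ± 0.26. The red blood cell list, with 2 names on both designs, was not detected on any first-design array. Of these names miR-144 was detected on no array and the other only on the second design. The liver marker miR-122 was detected on no array. In these bulk samples fewer cells of a type and less RNA per cell cannot be told apart, and the part of other cells in the miR-30 levels was not tested.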

How the data were processed

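Per the labels' protocols, 100 ng of total RNA per sample was labelled with Cy3. Spot intensity was deposited after background subtraction and without normalisation between arrays, as written by Agilent Feature Extraction 10.5.1.1 (first design) or 10.7.3.1 (second), per the file headers. For each design the authors deposited a further table, in log2. Each column was compared with its array's own file. The first table proved to be log2 of the software's total intensity with 50 added, unscaled. The second was log2 of total intensity for detected miRNAs, with 3 (Control 635), 2 (Control 652) and 2 (HFD 640) cells that deviated by over 0.01. Median values of the columns lay at 5.70 (Control 602), 5.70 (Control 613), 5.68 (Control 615), 5.69 (Control 639), 5.69 (HFD 603), 5.73 (HFD 607), 5.71 (HFD 644), 5.83 (HFD 653), 6.59 (Control 635), 6.89 (Control 652) and 6.52 (HFD 640). Scale and centring are thus known and the values are no ratios. The submitters' processing notes also name RMA and Partek, with no version or role.

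Spots without outlier flags were averaged per probe, and probe means were added up per miRNA. Arrays were scaled to a common 75th percentile of the 85 miRNAs detected everywhere. Scaled values below 11.7, the 1st percentile of detected ones, were raised to it (3.54 after log2). Groups were compared with limma 3.58.1 (R 4.3.3), HFD relative to Control, 2-sided, with array design as the block. Benjamini-Hochberg adjustment to 0.05 covered the 152 miRNAs that at least 5 arrays detected. Exact permutation tests were 2-sided and kept labels within array design. The number of arrays limits the precision. Alternatives covered scaling, background, probe summary, floor, filter, block and each array left out. Normexp used the median spot signal in place of the mean signal that had been planned.

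The members, the lists and the tests were chosen with earlier results of these data known. Named miRNAs were all members, the star names, the 5 non-members most correlated with the members' mean, and up to 3 tested miRNAs of smallest p per list. miR-200b and miR-200c were named for slide position after values were seen, and miR-26b because the scaling fixed it on the first design. Mature sequences of miR-30b and miR-30d were not used here.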

Additional observations from a re-analysis of the deposited data

Results flagged for a closer look

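In 48 sets of 4 first-design arrays of 1 group, the highest or lowest array was compared with the other 3 by its gap to the nearest over the whole range. In 8 sets this share passed Dixon's 95% critical value, where chance gives about 1 in 20, or 2.4 of 48. The sets share arrays, and several are ratios that share a member, so they are not independent and these counts are no test. Control 602, at slide position 1, was the low array in 6 of the 8 flagged sets. Its share was 0.925 for miR-30b-5p, at 6.53 against 8.17 to 8.31 on the log2 scale, and 0.872 for miR-30c, at 7.94 against 8.41 to 8.48. For the log2 ratio of miR-30b-5p over miR-30c it was 0.947, at -1.41 against -0.23 to -0.17, and for miR-30b-5p over miR-30e it was 0.870, at -0.29 against 0.60 to 0.73. Among the miRNAs most like the family, the share was 0.833 for miR-27b, at 10.33 against 10.78 to 10.87, and 0.898 for miR-384-5p, at 8.43 against 9.14 to 9.22. Both were picked for their correlation with the members' mean over these same first-design arrays, where that mean was lowest on Control 602. A low Control 602 was thus partly built into their choice.

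In the HFD group, HFD 653, also at slide position 1, was low for the ratio of miR-30b-5p over miR-30d, with a share of 0.834, at -1.46 against -0.63 to -0.47. HFD 644 was high for miR-30e*, with a share of 1, at 3.69 against 3.54 on the other 3 arrays, all of which lay at the floor.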

How the results depend on the processing

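No member passed the threshold under any alternative run. The number of miRNAs called, 0 in the main fit, was 1 with no scaling and 0 in all others that allow a test. Signs of the members' differences turned often. The values listed next are those whose sign turned, and ranges that include the others follow them.

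With no scaling, miR-30b-3p read 0.070, miR-30d 0.043 and miR-30e 0.033. With the upper quartile over all shared names, miR-30a read -0.14, miR-30c -0.13 and miR-30a* -0.21. With median scaling they read -0.072, -0.059 and -0.14, and with quantile normalisation -0.076, -0.047 and -0.34, with miR-30e* at -0.068. Normexp gave 0.012 for miR-30d, 0.041 for miR-30e and -0.029 for miR-30d over miR-30e. miR-30b-3p read 0.067 with outlier spots kept, 0.10 with the median over probes, 0.021 with the floor at the 5th percentile, 0.11 with array weights and 0.081 with the upper quartile of spots, where miR-30e read 0.0075. The RMA-like summary gave -0.0584 for miR-30a, -0.0582 for miR-30a* and -0.017 for miR-30e*, and the lowest floor gave -0.11 for miR-30e*. The deposited tables gave 0.0057 for miR-30b-5p, 0.0697 for miR-30d and 0.094 for miR-30e.

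Without a block, miR-30a read -0.023, miR-30b-3p 0.0095, miR-30c -0.11, miR-30a* -0.045 and miR-30e* -0.22. The second design alone gave 0.29 for miR-30b-3p, 0.13 for miR-30b-5p, 0.067 for miR-30d and 0.22 for miR-30e. Slide position as the block gave 0.15, 0.0103, 0.0503 and 0.10 for these 4, and position 1 alone 0.32, 0.056, 0.24 and 0.037, with miR-30a* at -0.32. Position 3 alone gave 0.0083 for miR-30e. Without both position 1 arrays, miR-30a over miR-30c read 0.022 and miR-30d over miR-30e -0.033. Settings by slide position and the upper quartile of spots were chosen after seeing the data. The cause was not tested.

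Leaving out each array in turn, differences ran from -0.025 to 0.17 for miR-30a, -0.12 to 0.16 for miR-30b-3p, -0.44 to 0.10 for miR-30b-5p, 0.0051 to 0.13 for miR-30c, -0.17 to 0.058 for miR-30d, -0.16 to 0.064 for miR-30e, -0.054 to 0.075 for miR-30a* and 0.037 to 0.087 for miR-30e*. Of the ratios with a turned sign, miR-30a over miR-30c ran from -0.076 to 0.041, miR-30b-5p over miR-30d from -0.28 to 0.060, miR-30b-5p over miR-30e from -0.28 to 0.038 and miR-30d over miR-30e from -0.029 to 0.065. The members' median ran from -0.094 to 0.083. Ranges were wider over the other alternatives, which include comparisons of single arrays. They were -0.14 to 0.48 for miR-30a, -0.48 to 0.32 for miR-30b-3p and -0.57 to 0.13 for miR-30b-5p. For miR-30c the range was -0.13 to 0.30, for miR-30d -0.25 to 0.24 and for miR-30e -0.29 to 0.22. The members' median then ran from -0.25 to 0.19.

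Of the 5 miRNAs most like the family, 2 were shared by Spearman's rank correlation, 3 with no scaling and 3 with the upper quartile over all shared names. No paired analysis was possible because the groups share no replicate numbers. Arrays that share a slide position were compared within positions and with position as a block, as given above. The software's own error was 7.17% to 12.2% of the signal for the 5 brighter members on 10 arrays and 14.3% to 35.6% on HFD 653.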
